A study of Homo sapiens with 16 samples.

Results

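The 5 genes described here are transcripts of the human placenta and gut that were found in cultures labelled as liver cancer lines: ALPP (placental alkaline phosphatase), ALPI (intestinal alkaline phosphatase), CGA (the alpha subunit shared by the glycoprotein hormones), and PSG4 and PSG5 (pregnancy specific glycoproteins). They were chosen for their levels in these same libraries, out of 16697 gene identifiers listed in at least 1 library, so their values are given as a description and no p-value is given for any of them. All 5 passed the filter on low counts, ALPP in every group, the PSG pair only through treated HepG2. RNA was measured in 16 libraries of cells labelled Huh-7 or HepG2, both established human hepatoma lines, which were untreated or had received cinobufagin at 5 µmol/L for 12 or 24 h. Cinobufagin is a cardiotonic steroid of toad venom that blocks the Na,K-ATPase. The labels name 1 untreated group per line, which served for both times, so drug and time in culture cannot be told apart. Each group had 3 libraries except untreated HepG2, which had 1. Every HepG2 change from untreated and the untreated line difference therefore rest on that single library. Nothing in the labels tells whether the 3 libraries were separate cultures, and the spread between them may be technical.

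Alkaline phosphatases remove phosphate groups at the outside of the cell and are held in the membrane by a glycosylphosphatidylinositol (GPI) anchor. The placental form belongs to the syncytiotrophoblast and is also made by some tumours, and the intestinal form sits on the brush border of the gut. The alpha subunit encoded by CGA pairs with a beta subunit to make chorionic gonadotropin, luteinizing, follicle stimulating or thyroid stimulating hormone, and its placental expression is known to respond to cyclic AMP. The PSG proteins are secreted relatives of the carcinoembryonic antigen family and are made in quantity by the syncytiotrophoblast.

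The promoters of these genes are shown because ALPP and ALPI, neighbours with similar coding sequence, had different levels after treatment, while PSG4 and PSG5 had a similar course. Each sequence is the RefSeq window of 300 bases, 250 before the gene start and 50 after it, 5′ to 3′ on the gene's own strand, in GRCh38.p14, whereas the deposited values rest on hg19. ALPP lies at chr2:232378501-232378800 and ALPI at chr2:232455903-232456202, both on the plus strand. Capitals mark the longest run of letters common to these windows and that of ALPG, the germ cell alkaline phosphatase gene between them, a run of 15 bases that holds TTTAAA.
ALPP: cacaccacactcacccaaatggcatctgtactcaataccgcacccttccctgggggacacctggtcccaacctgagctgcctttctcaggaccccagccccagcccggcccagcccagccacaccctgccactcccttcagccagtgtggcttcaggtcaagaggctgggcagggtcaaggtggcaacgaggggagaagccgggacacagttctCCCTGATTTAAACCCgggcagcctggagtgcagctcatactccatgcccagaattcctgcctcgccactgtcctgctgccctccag
ALPI: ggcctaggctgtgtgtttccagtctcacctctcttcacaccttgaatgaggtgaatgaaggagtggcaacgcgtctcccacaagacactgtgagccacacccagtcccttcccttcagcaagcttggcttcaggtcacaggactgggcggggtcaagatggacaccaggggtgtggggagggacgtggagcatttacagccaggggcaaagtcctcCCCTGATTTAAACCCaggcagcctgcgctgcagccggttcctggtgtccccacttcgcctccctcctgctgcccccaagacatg
The ALPP window aligned with that of ALPG at 88.2% identity over 279 columns and with that of ALPI at 71.7% over 159 columns. TTTAAA began 30 bases before the start of ALPP and 28 before that of ALPI, and 12.2% of 35116 promoter windows hold it.

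The CGA window, at chr6:87095057-87095356 on the minus strand, is shown for its known cyclic AMP response elements. Capitals mark both copies of TGACGTCA, beginning 142 and 124 bases before the start, and TATAAA, beginning 29 bases before it.
CGA: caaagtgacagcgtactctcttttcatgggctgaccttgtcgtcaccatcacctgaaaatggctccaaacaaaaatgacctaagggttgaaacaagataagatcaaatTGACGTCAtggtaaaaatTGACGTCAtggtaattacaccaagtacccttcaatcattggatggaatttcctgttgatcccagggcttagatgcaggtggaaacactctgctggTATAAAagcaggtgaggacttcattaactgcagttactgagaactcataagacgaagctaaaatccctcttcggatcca
TGACGTCA reads the same on both strands, and 1.85% of the 35116 windows hold it at least once. Only 21 windows, or 0.0598%, hold it 2 or more times. A match describes letters and says nothing of binding in these cells. TATAAA, searched on both strands, is in 11.5% of the windows.

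The PSG4 window is chr19:43205589-43205888 and the PSG5 window chr19:43186487-43186786, both on the minus strand. Capitals mark the longest run that they share, 89 bases.
PSG4: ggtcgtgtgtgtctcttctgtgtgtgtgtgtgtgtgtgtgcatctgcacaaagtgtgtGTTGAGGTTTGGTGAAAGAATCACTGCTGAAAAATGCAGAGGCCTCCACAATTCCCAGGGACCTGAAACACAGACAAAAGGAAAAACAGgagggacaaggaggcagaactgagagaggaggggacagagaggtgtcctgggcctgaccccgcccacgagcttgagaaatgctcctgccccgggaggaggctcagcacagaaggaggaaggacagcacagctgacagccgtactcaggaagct
PSG5: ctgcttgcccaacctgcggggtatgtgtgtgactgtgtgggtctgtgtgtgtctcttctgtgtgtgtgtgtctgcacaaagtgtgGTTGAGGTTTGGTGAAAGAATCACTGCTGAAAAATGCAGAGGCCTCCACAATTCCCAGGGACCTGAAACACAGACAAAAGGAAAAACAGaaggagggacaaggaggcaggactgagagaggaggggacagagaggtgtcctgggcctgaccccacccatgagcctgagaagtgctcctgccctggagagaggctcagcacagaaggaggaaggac
The PSG pair aligned at 90.9% identity over 275 columns. Neither window holds TGACGTCA, TTTAAA or TATAAA.

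The identity of the cultures was checked against liver markers, and the labels were not borne out by them. Of 23 hepatocyte markers, 7 were listed in no library: APOA2, APOB, APOH, TTR, SERPINA1, FGG and HP. AFP reached at most 0.08 CPM and APOA1 at most 0.11 CPM, both under the 0.287 to 0.314 CPM that a count of 0 allows (3 counts, counting error only). CPM is the usual ratio of a count to its library total, here a total scaled by TMM. The other hepatocyte markers summed to 58.0 to 61.5 CPM in untreated Huh-7, where HNF4A averaged 30.8 CPM and RBP4 17.8 CPM. In untreated HepG2 they summed to 178.3 CPM, of which the plasma protein gene VTN gave 160.7 CPM. The lines are therefore named below only as labelled. Depth ran from 9543048 to 10457853 expected counts per library. In bulk RNA, fewer cells that express a gene and less RNA per cell cannot be told apart.

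ALPP was abundant in every library and higher in HepG2 than in Huh-7, by 3.09 on the log2 scale untreated (SE 0.0471), 2.82 at 12 h (SE 0.0389) and 3.06 at 24 h (SE 0.0395). Untreated Huh-7 held 450.3, 437.5 and 462.7 CPM, the 12 h libraries 769.0, 783.9 and 759.9 CPM, and the 24 h libraries 563.6, 592.4 and 550.5 CPM. These 3 groups did not overlap, with untreated lowest and 12 h highest. The difference from untreated was 0.78 on the log2 scale (SE 0.0385) at 12 h and 0.34 (SE 0.0387) at 24 h. The value at 24 h depended on the scaling: with the plain library size it was -0.01.

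In HepG2 the lone untreated library held 3825 CPM of ALPP, the 12 h libraries 5306, 5547 and 5427 CPM, and the 24 h libraries 4413, 4825 and 5030 CPM. Both treated groups were above the untreated library without overlap, and 12 h was above 24 h. The log2 difference was 0.51 (SE 0.052) at 12 h and 0.31 (SE 0.0514) at 24 h, under the 2-fold set for a call. By the deposited FPKM, which divides by gene length and library total, ALPP ranked 15 of 14626 listed genes in untreated HepG2 and between 11 and 17 in the treated libraries. In Huh-7 it ranked between 304 and 418.

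The deposited FPKM of ALPP separated the HepG2 groups less than CPM on the TMM scale did. The untreated library, at 1495 FPKM, lay within the range of the 24 h libraries, 1446 to 1623 FPKM. In Huh-7 the 24 h libraries, at 182.8 ± 5.7 FPKM (SD, n = 3), overlapped the untreated ones at 184.5 ± 5.02. Only the 12 h level in Huh-7, 236.9 ± 2.9 FPKM, stood clear of both. TMM factors were 1.17 to 1.24 in untreated and 0.889 to 0.982 in treated libraries, so a change in treated cells reads lower where this factor is not used: with the plain library size the median of all genes moved by -0.42 and -0.35 in Huh-7 at 12 h and 24 h and by -0.40 and -0.27 in HepG2.

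**Figure D1:**
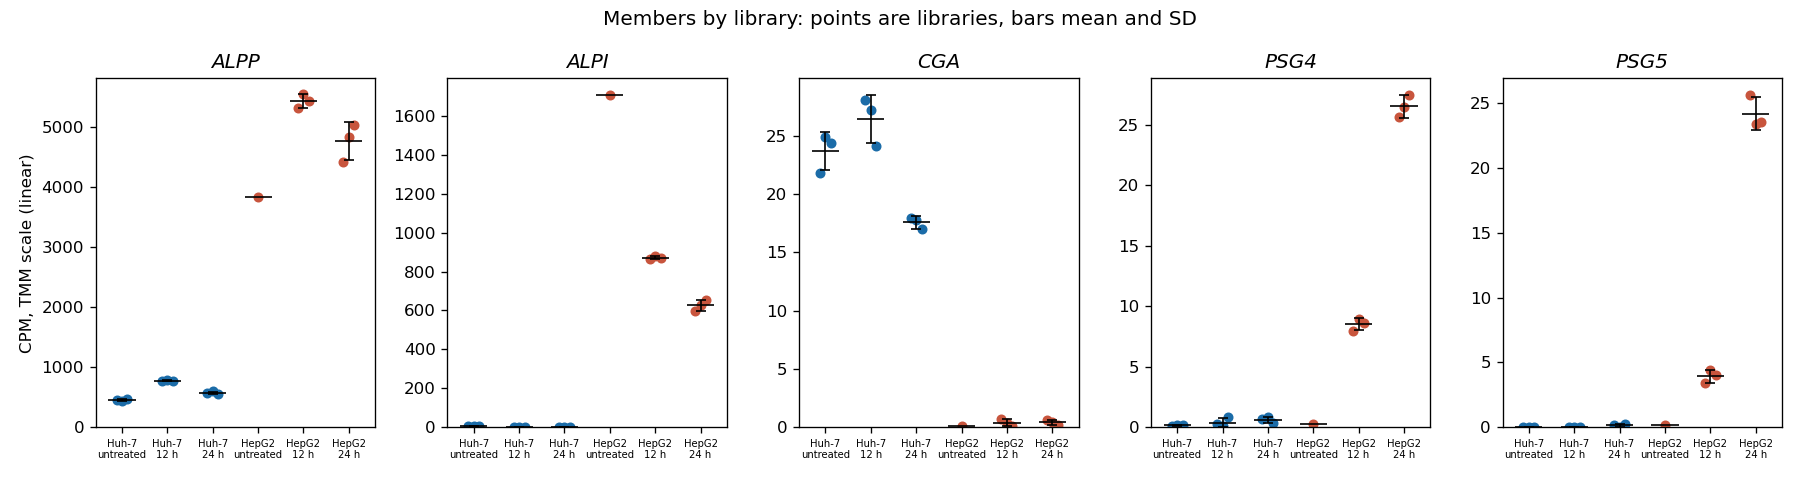
CPM on the TMM scale (linear vertical axes, each gene with its own range) of the 5 genes in 16 libraries, by line and time; points are libraries, horizontal bars group means and error bars SD, with no SD for the lone untreated HepG2 library. ALPP is high in both lines, ALPI and the PSG pair are high in HepG2 libraries (the PSG pair after treatment), and CGA is high in Huh-7.

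ALPI, the intestinal enzyme, was lower after treatment in both lines, from very different starting levels. Untreated HepG2 held 1709 CPM. Its 12 h libraries held 864.2, 881.9 and 868.6 CPM, and its 24 h libraries 595.7, 628.4 and 655.1 CPM. No group overlapped another, and the order was untreated, 12 h, 24 h from the highest to the lowest. The log2 difference was -0.97 (SE 0.0487) at 12 h, just inside the 2-fold limit, and -1.45 (SE 0.0481) at 24 h. At 12 h it passed the limit under upper-quartile scaling, at -1.15, and with the plain library size, at -1.37. With division by the library median it was smaller, at -0.68.

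In Huh-7 ALPI was a rare transcript. Untreated libraries held 54.56, 64.75 and 45.63 expected counts, or 4.53, 5.5 and 3.78 CPM. After 12 h there were 7.4, 6.08 and 5.33 counts, and after 24 h 9.13, 3.04 and 7.09. Both treated groups lay below every untreated library and overlapped each other. The log2 difference was -2.75 (SE 0.276) at 12 h and -2.80 (SE 0.27) at 24 h. At so few counts these SE values may understate the error. The change in HepG2 minus the change in Huh-7 was 1.78 (SE 0.301) at 12 h and 1.35 (SE 0.304) at 24 h, that is, ALPI was reduced by a smaller factor in HepG2. HepG2 stood 8.53 above Huh-7 on the log2 scale when untreated (SE 0.0722), 10.30 at 12 h and 9.87 at 24 h.

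In HepG2 the alkaline phosphatase transcripts of the treated libraries held a larger share of ALPP and a smaller share of ALPI than the untreated library. In untreated HepG2, ALPP made 70.9% and ALPI 28.9% of the FPKM of ALPP, ALPG and ALPI together. At 12 h their shares were 87.1% ± 0.15 and 12.8% ± 0.14 (SD, n = 3), and at 24 h 89.1% ± 0.18 and 10.7% ± 0.2. The ratio of ALPP to ALPI FPKM, which needs no scaling between libraries, was 2.46 in the untreated library, 6.74 to 6.9 at 12 h and 8.13 to 8.43 at 24 h. In Huh-7 the second enzyme was ALPG, with 15.95% ± 0.87 of the FPKM untreated, 9.78% ± 0.5 at 12 h and 8.95% ± 0.96 at 24 h, and ALPI made under 1%.

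**Figure D2:**
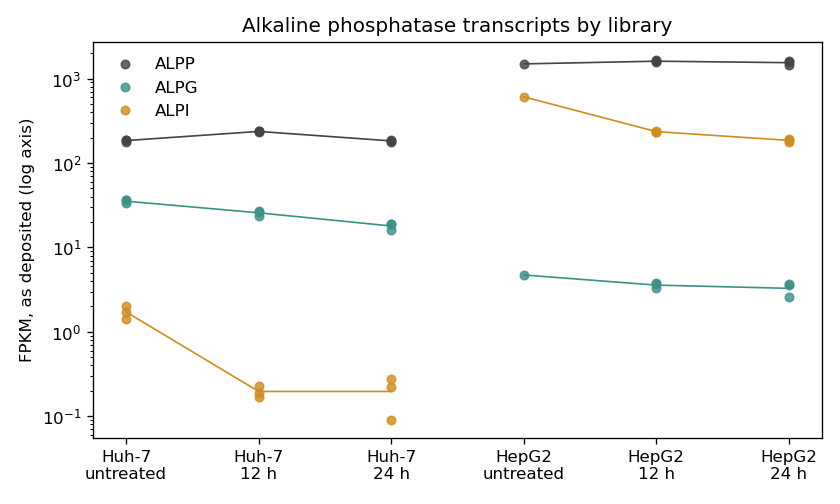
Deposited FPKM (log axis) of ALPP, ALPG and ALPI by line and time; points are libraries and lines join group means within a line. In HepG2 ALPP averages 1495 to 1610 FPKM while ALPI goes from 608.6 FPKM in the untreated library to 185.5 FPKM at 24 h, and in Huh-7 ALPG lies above ALPI throughout.

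ALPG, whose product is nearly identical to the placental enzyme, had the opposite line preference. It stood at 71.9 ± 3.97 CPM in untreated Huh-7 and 10.1 CPM in untreated HepG2, a log2 difference of -2.83 that passed edgeR's quasi-likelihood test (adjusted p = 5.8e-19). In Huh-7 at 24 h it was 0.62 lower on the log2 scale than untreated (-0.62, adjusted p = 2.85e-10 by the same test), short of 2-fold. ALPL, the tissue-nonspecific enzyme of liver and bone, was listed only in the 3 HepG2 libraries at 12 h, with 1, 1 and 2 counts. Reads can be misassigned between these genes: of the ALPP transcript's 50-base windows 24.5% occur unchanged in ALPG and 1.3% in ALPI, and of ALPI's only 1.5% occur in ALPP. At 100 bases ALPI shared 0% with either. With the reads of ALPP, ALPG and ALPI summed, the total was 5543.5 CPM in untreated HepG2, 6307.9 ± 129.3 at 12 h and 5391.0 ± 345.0 at 24 h (SD, n = 3), so the untreated library lay within the range of the 24 h libraries, 5015.8 to 5694.7.

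CGA was a Huh-7 transcript. Untreated Huh-7 held 21.8, 24.9 and 24.4 CPM, the 12 h libraries 28.1, 27.2 and 24.1 CPM, and the 24 h libraries 17.99, 17.78 and 16.97 CPM. Untreated and 12 h libraries overlapped, and every 24 h library was below both. The log2 difference from untreated was 0.16 (SE 0.0877) at 12 h, which became -0.11 under upper-quartile scaling and -0.26 with the plain library size, and -0.43 (SE 0.093) at 24 h. From 12 to 24 h it was -0.59 (SE 0.0957). No Huh-7 change of CGA reached 2-fold.

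HepG2 held almost no CGA. Its untreated library had 1 count, the 12 h libraries 6.11, 3 and 1 counts, and the 24 h libraries 6.46, 4.09 and 2.1 counts. The summed counts gave a ratio to untreated of 4.31 at 12 h and 4.95 at 24 h, with exact 95% counting intervals of 0.613 to 187 and 0.743 to 210, so a change was not detectable at this depth. The log2 difference of HepG2 from Huh-7 was -6.11 at 12 h and -5.43 at 24 h. As a ratio it was 0.0141 at 12 h, with a counting interval of 0.00672 to 0.026, and 0.0243 at 24 h (0.0129 to 0.042). Untreated, the ratio of HepG2 to Huh-7 was 0.00364, with an interval of 9.22e-05 to 0.0204.

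The hormone beta subunits were far rarer than CGA. CGB8, a chorionic gonadotropin beta gene, had 15.29, 13.47 and 30.42 counts in untreated Huh-7, 22.35, 13.45 and 10.66 at 12 h, and 9, 7.11 and 2.92 at 24 h. CGB5, another beta gene, averaged 10.9 counts untreated, 2.03 at 12 h and 1.5 at 24 h. CGB3, a further copy, averaged 2.01, 6.81 and 0 counts in that order. Beta genes are near-identical copies, so their division of reads is uncertain, and none had the counts set here for giving a difference. Summed over the 8 listed hormone subunit and receptor genes other than CGA, the libraries held 2.7 to 3.8 CPM in untreated Huh-7, 3.0 to 4.5 at 12 h and 0.8 to 1.6 at 24 h, so the 12 h libraries overlapped the untreated ones and the 24 h libraries lay below both. CGB2, CGB3, CGB7 and LHB averaged at most 6.81 counts in any Huh-7 group and at most 1.33 in any HepG2 group, GPHB5 and the receptor gene TSHR under 1 count, and CGB1, FSHB, TSHB, GPHA2, LHCGR and FSHR were listed nowhere.

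PSG4 and PSG5 were close to absent from both lines before treatment and were present after it in HepG2. Untreated HepG2 held 2.76 counts of PSG4, or 0.24 CPM. The 12 h libraries held 7.95, 8.93 and 8.63 CPM, and the 24 h libraries 25.6, 26.5 and 27.5 CPM. Each later group lay above the earlier one without overlap. The ratio to the untreated library was 32.7 at 12 h, with a 95% counting interval of 11.1 to 160, and 102 at 24 h (34.9 to 497). From 12 to 24 h the log2 difference was 1.63 (SE 0.118), between groups of 3 libraries.

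PSG5 had a steeper later course. Untreated HepG2 held 2.07 counts, or 0.18 CPM, the 12 h libraries 3.38, 4.39 and 3.99 CPM, and the 24 h libraries 25.7, 23.4 and 23.6 CPM. Again no group overlapped another. The ratio to untreated was 22.6 at 12 h (counting interval 6.11 to 189) and 140 at 24 h (38.6 to 1160), and the log2 difference from 12 to 24 h was 2.61 (SE 0.145). The ratio of PSG5 to PSG4 by FPKM went from 0.61 ± 0.04 at 12 h to 1.24 ± 0.1 at 24 h (SD, n = 3). The deposited length of PSG4 varied from 1829 to 2195 bases between libraries, so its FPKM also carries the weighting of isoforms.

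Huh-7 stayed near 0 for both. PSG4 had 1, 2 and 2 counts untreated, 2.01, 1 and 7 at 12 h, and 6.47, 8 and 3 at 24 h. The ratio of 24 h to untreated was 4.21, with a counting interval of 1.49 to 14.6. PSG5 was at 0 in 7 of 9 Huh-7 libraries, with 1.53 and 2.43 counts in the other two, both at 24 h. At 24 h HepG2 held 45.2 times the PSG4 of Huh-7 (28.1 to 78) and 176 times its PSG5 (68.3 to 646). At 12 h PSG5 was 34.6-fold higher in HepG2, taking 3 counts over the Huh-7 group as the floor and the HepG2 counts as exact. The lower limit of its counting interval was 27.6.

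The remaining PSG genes had the same direction in HepG2 at lower levels. PSG1 averaged 1.92 counts in the untreated library, 9.44 at 12 h and 56.1 ± 9.82 at 24 h. PSG9 went from 0 to 10.3 and 39.6 counts, PSG2 from 0 to 3.41 and 35.2, PSG8 from 2.25 to 4.12 and 18.6, and PSG6 from 0 to 0.57 and 15.9. Against the untreated library PSG1 was higher by a ratio of 32 at 24 h (counting interval 8.71 to 266), and PSG8 by 10.7 (2.81 to 90.1). With 3 counts in that library as the floor, PSG9 was 15.1-fold, PSG2 13.3-fold and PSG6 6.09-fold higher. These values take the treated counts as exact. The lower limits of the counting intervals were 12.1 for PSG9, 10.6 for PSG2 and 4.76 for PSG6. These 5 genes passed the filter through the 24 h HepG2 libraries, so their direction there was fixed by the filter. PSG3, PSG7 and PSG11 were listed in HepG2 at 24 h alone and averaged 1.85 to 2.46 counts.

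Summed over the family, PSG transcripts stood at 0.78 CPM in untreated HepG2, 15.5 ± 0.9 at 12 h and 67.7 ± 0.97 at 24 h (SD, n = 3). In Huh-7 the sum was 0.17, 0.6 ± 0.46 and 1.0 ± 0.16 CPM. PSG4 and PSG5 together made 78.8% ± 2.43 of the family's FPKM in HepG2 at 12 h and 73.6% ± 1.8 at 24 h. The genes share sequence: 15.8% of the 50-base windows of PSG4 transcripts and 24.8% of those of PSG5 occur unchanged in another PSG gene, and 1.6% and 6% at 100 bases, and how reads were divided among them was not tested.

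**Figure D3:**
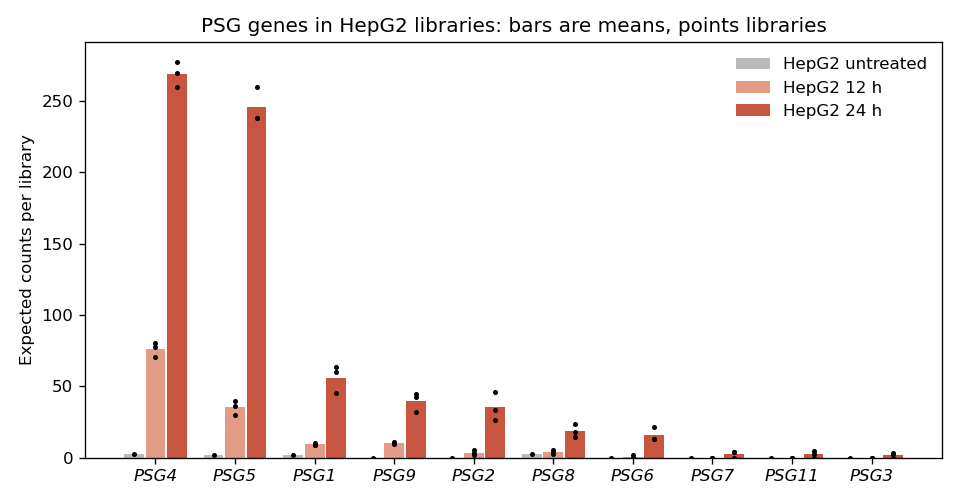
Expected counts (linear axis from 0) of the 10 PSG genes in HepG2 libraries, untreated, 12 h and 24 h; bars are means over 1, 3 and 3 libraries and points are libraries. PSG4 and PSG5 stand above the other PSG genes at 24 h, with means of 268.7 and 245.5 counts.

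A gene was called when its adjusted p in edgeR's quasi-likelihood test was under 0.05 and its change at least 2-fold, and many genes met that rule in these data. Of 13633 genes tested in Huh-7 at 12 h, 16.8% were called higher and 27.1% lower, beside 0 and 1 of the members (ALPI lower). At 24 h the shares were 17.9% and 26.9%, beside 2 and 1 members, and from 12 to 24 h 6.51% and 6.54%, beside 1 and 0. The higher calls in Huh-7 were PSG4 and PSG5 at 24 h and PSG5 from 12 to 24 h, on the few counts given above. In HepG2 at 12 h 14.3% were called higher and 23.6% lower, beside 2 and 0 members, at 24 h 14.1% and 22.3%, beside 2 and 1, and from 12 to 24 h 6.54% and 5.31%, beside 2 and 0. HepG2 against Huh-7 gave 13.8% higher and 13.1% lower untreated, beside 3 and 1 members, 18.0% and 15.9% at 12 h, beside 4 and 1, and 19.9% and 16.7% at 24 h, beside 4 and 1. For the difference of changes between the lines the shares were 9.40% and 8.35% at 12 h, beside 2 and 0 members, and 13.1% and 10.9% at 24 h, beside 3 and 0. As the members were chosen on these contrasts, nothing is read from these counts.

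**Figure D4:**
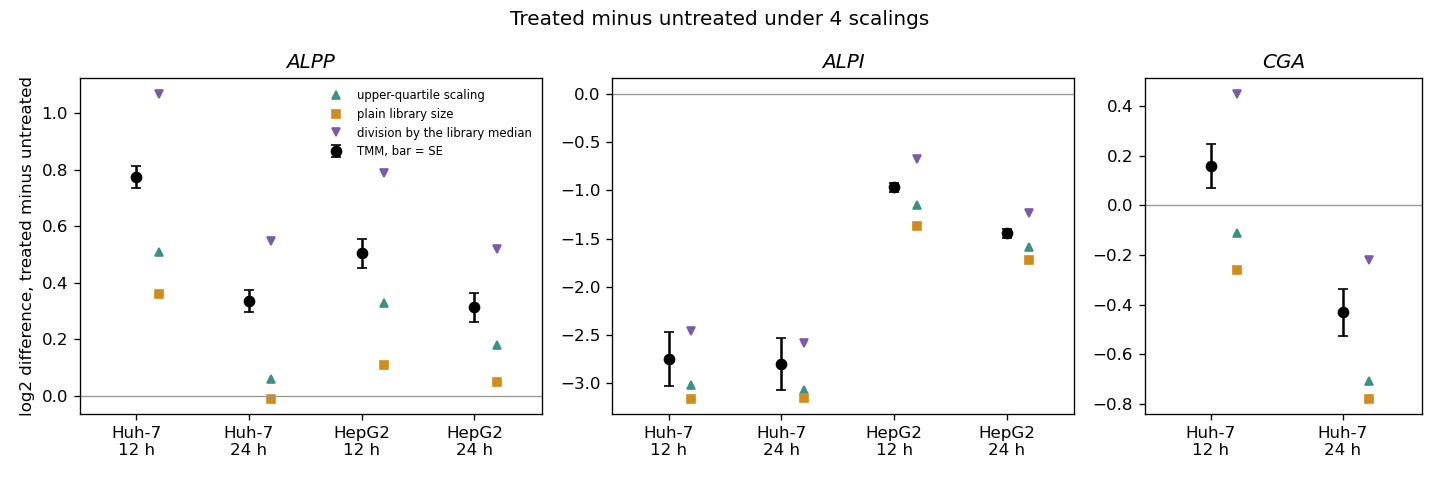
Log2 difference from untreated of ALPP, ALPI and CGA on the TMM scale (black, bar = SE) and under upper-quartile scaling, plain library size and division by the library median (coloured); CGA is shown for Huh-7 only. ALPI is below 0 in all 4 comparisons under all 4 scalings, whereas ALPP at 24 h in Huh-7 is -0.01 with the plain library size and CGA at 12 h is above 0 under 2 scalings and below it under 2.

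The counts below are of related genes other than the members, with the shares of all genes called given above. Lists with at most 8 genes tested are too small for a share to be set beside those. All lists were chosen with earlier results of these data known, so their shares are a description and no test of enrichment. Over the 12 lists together, with a gene held by several lists counted once, 29 rose and 29 fell in Huh-7 at 12 h, 33 and 36 at 24 h, and in HepG2 25 and 20 at 12 h, 28 and 31 at 24 h. With the plain library size these counts were 24 and 42, 25 and 45, 16 and 30, and 22 and 42, and with division by the library median 37 and 25, 41 and 31, 34 and 16, and 35 and 20, so the balance of rises and falls depends on the scaling.

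The genes that make and attach the GPI anchor of the alkaline phosphatases were called lower more often than higher, as were all genes tested. Of 32 tested, 1 rose and 10 fell in Huh-7 at 12 h and 3 rose and 14 fell at 24 h; in HepG2 2 rose and 5 fell at 12 h, and 2 rose and 12 fell at 24 h. Their median log2 difference was -0.54, -0.73, -0.42 and -0.83 in that order, beside -0.10, -0.04, -0.09 and -0.01 over all genes. The share that fell was 31.2% and 43.8% in Huh-7 at 12 h and 24 h, beside 27.1% and 26.9% of all genes, and 15.6% and 37.5% in HepG2, beside 23.6% and 22.3%. It was thus near the background in Huh-7 at 12 h and below it in HepG2 at 12 h. The medians were -0.95, -1.08, -0.82 and -1.10 with the plain library size and -0.25, -0.51, -0.13 and -0.62 with division by the library median. Summed, the 32 genes held 1089.9 to 1099.6 CPM in untreated Huh-7 and 1290.9 to 1341.6 at 24 h. In HepG2 they held 1502.5 CPM untreated and 1008.0 to 1082.2 at 24 h. Some were higher in Huh-7 at 24 h: PIGT went from 192.9 to 335.0 CPM and DPM1 from 26.0 to 99.7. PIGV, a mannosyltransferase of anchor synthesis, was at 11.1 CPM in untreated Huh-7 and 0.55 at 24 h (log2 -4.30, adjusted p = 3.89e-17, edgeR). In HepG2 it was at 28.9 and 2.17 CPM (-3.73, adjusted p = 5.29e-18). PIGA, part of the enzyme of the first step, rose in HepG2 from 9.33 to 54.4 CPM at 12 h (2.54, adjusted p = 1.07e-19). PGAP2, which remodels the anchor's lipid, fell in Huh-7 from 52 to 5.03 CPM at 24 h (-3.37, adjusted p = 3.06e-25).

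Other GPI-anchored surface proteins went both ways: of 18 tested, 4 rose and 5 fell in Huh-7 at 12 h, 5 and 4 at 24 h, and in HepG2 4 and 2 at 12 h, 5 and 5 at 24 h. In Huh-7 these were 22.2% and 27.8% at 12 h, beside 16.8% and 27.1% of all genes. At 24 h they were 27.8% and 22.2%, beside 17.9% and 26.9%. In HepG2 the shares were 22.2% and 11.1% at 12 h, beside 14.3% and 23.6%. They were 27.8% and 27.8% at 24 h, beside 14.1% and 22.3%. The medians of the list were 0.10, 0.04, -0.09 and -0.42, and with the plain library size -0.32, -0.31, -0.49 and -0.68. NT5E, an ectonucleotidase, rose in Huh-7 from 4.18 to 39.1 CPM at 24 h (log2 3.22, adjusted p = 2.94e-23, edgeR), and in HepG2 from 7.09 to 17.4 CPM (1.29, adjusted p = 3.09e-08). CD55, a complement regulator, rose at 12 h from 507.1 to 1599.5 CPM in Huh-7 (1.66, adjusted p = 2.04e-31) and from 750.0 to 2788 CPM in HepG2 (1.89, adjusted p = 3.91e-27). LYPD3 fell in Huh-7 at 12 h from 19.4 to 1.5 CPM (-3.67, adjusted p = 1.55e-20). EFNA1, an ephrin ligand, rose in HepG2 at 12 h from 75.5 to 406.6 CPM (2.43, adjusted p = 2.97e-25).

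Of 22 tested factors known to act at the CGA or PSG promoters, 12 rose and 2 fell in Huh-7 at 12 h, and 10 and 2 at 24 h; in HepG2, 7 rose and 5 fell at 12 h, and 6 and 5 at 24 h. In Huh-7 these were 54.5% and 9.09% at 12 h, beside 16.8% and 27.1% of all genes. At 24 h they were 45.5% and 9.09%, beside 17.9% and 26.9%. In HepG2 the shares were 31.8% and 22.7% at 12 h, beside 14.3% and 23.6%. They were 27.3% and 22.7% at 24 h, beside 14.1% and 22.3%. The medians of these factors were 1.23, 0.96, 0.32 and 0.08. With the plain library size those in HepG2 were -0.08 and -0.18. JUN, a subunit of AP-1, rose in Huh-7 from 19.1 to 535.8 CPM at 12 h (log2 4.81, adjusted p = 2.77e-35, edgeR), and in HepG2 from 10.1 to 114.0 CPM (3.49, adjusted p = 1.64e-22). KLF6, a zinc finger factor known to bind PSG promoters, rose in HepG2 from 10.1 to 80.6 CPM at 12 h (2.99, adjusted p = 5.06e-21) and in Huh-7 from 17.6 to 88.4 CPM at 24 h (2.33, adjusted p = 2.87e-25). ATF3, a stress-induced factor of the CREB and ATF family, rose in Huh-7 from 10.0 to 310.5 CPM at 12 h (4.95, adjusted p = 8.62e-35). PITX1, known to act at the CGA promoter of the pituitary, fell in HepG2 from 312.5 to 83.4 CPM at 12 h (-1.91, adjusted p = 3.32e-22). Whether any of them bears on CGA or the PSG genes was not tested. As the list was chosen with earlier results of these data known, its high share of rises is a description only.

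Genes of cyclic AMP signalling were called in both directions: of 20 tested, 2 rose and 4 fell in Huh-7 at 12 h, 4 and 4 at 24 h, and in HepG2 2 and 2 at 12 h, 2 and 3 at 24 h. These shares were near or below those of all genes. In Huh-7 they were 10% and 20% at 12 h, beside 16.8% and 27.1%, and 20% and 20% at 24 h, beside 17.9% and 26.9%. In HepG2 they were 10% and 10% at 12 h, beside 14.3% and 23.6%, and 10% and 15% at 24 h, beside 14.1% and 22.3%. The medians of the list were 0.06, 0.02, 0.17 and 0.22, and with the plain library size -0.31, -0.16, -0.23 and -0.05. The adenylyl cyclase ADCY7 fell at 12 h from 67.4 to 17.8 CPM in Huh-7 (log2 -1.92, adjusted p = 2.21e-21, edgeR) and from 21.4 to 3.72 CPM in HepG2 (-2.52, adjusted p = 3.26e-15). CRTC2, a coactivator of CREB, rose at 24 h from 60.1 to 284.8 CPM in Huh-7 (2.24, adjusted p = 9.49e-29) and from 67.8 to 207.9 CPM in HepG2 (1.62, adjusted p = 2.64e-19).

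Markers of other cell types that make these proteins were followed beside them. Of 48 trophoblast and placental markers 40 were listed, and they summed to 990.7 to 995.4 CPM in untreated Huh-7, 1509.8 to 1603.8 at 12 h and 1612.8 to 1659.9 at 24 h; in HepG2 the sums were 1856.6, 1742.1 to 1811.3 and 1312.8 to 1404.9 CPM. KRT7 and TFAP2A, both also made by other epithelia, gave 848.2 and 477.6 CPM of the sum in untreated HepG2. The defining genes CSH1 and CSH2 (placental lactogen) were at 0 in all 7 HepG2 libraries and at most 0.48 CPM in Huh-7, and ERVFRD-1 (syncytin-2) was at most 0.45 CPM anywhere. Other genes of the list were detected: ERVW-1 (syncytin-1) averaged 1.94 to 3.51 CPM over the 6 groups and ERVV-1 4.28 to 7.46 CPM, and XAGE2 stood in HepG2 at 0.95 CPM untreated, 1.97 at 12 h and 2.76 at 24 h. GCM1, the factor of syncytiotrophoblast formation, was at 0.83 CPM in untreated HepG2, 1.43 at 12 h and 3.22 at 24 h. In Huh-7 it averaged 0.93, 0.87 and 1.22 CPM in that order. Other genes of the list at such levels went the other way in HepG2. DLX3 stood at 3.54 CPM untreated, 0.04 at 12 h and 0.03 at 24 h, and CYP19A1 at 1.3, 0.19 and 0.03 CPM.

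Of 26 trophoblast markers tested, 9 rose and 5 fell in Huh-7 at 12 h, 9 and 7 at 24 h, and in HepG2 6 and 4 at 12 h, 8 and 6 at 24 h. In Huh-7 these were 34.6% and 19.2% at 12 h, beside 16.8% and 27.1% of all genes. At 24 h they were 34.6% and 26.9%, beside 17.9% and 26.9%. In HepG2 the shares were 23.1% and 15.4% at 12 h, beside 14.3% and 23.6%. They were 30.8% and 23.1% at 24 h, beside 14.1% and 22.3%. The medians of these markers were 0.55, 0.44, -0.05 and -0.01. The last pair, in HepG2, was -0.36 and -0.14 with the plain library size and 0.17 and 0.10 with division by the library median. With the plain size the calls became 8 and 9 in Huh-7 at 24 h, and 3 and 5 at 12 h and 5 and 7 at 24 h in HepG2. PAPPA, a pregnancy-associated protease, rose in HepG2 from 8.73 to 52.3 CPM at 24 h (log2 2.58, adjusted p = 9.19e-16, edgeR) and in Huh-7 from 1.25 to 13.6 CPM (3.43, adjusted p = 2.07e-16). PHLDA2, an imprinted placental gene, rose at 24 h from 84.7 to 852.5 CPM in Huh-7 (3.33, adjusted p = 3.73e-33) and from 22.5 to 65.9 CPM in HepG2 (1.55, adjusted p = 1.84e-14). Other markers of the list fell. SDC1 went in Huh-7 from 73.8 to 16.6 CPM at 24 h (-2.15, adjusted p = 7.73e-24, edgeR). In HepG2 at 24 h HSD17B1 went from 13.9 to 6.7 CPM (-1.05) and GATA3 from 13.5 to 3.88 CPM (-1.79). Whether trophoblast cells had a part in the PSG levels was not tested.

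Of 20 intestinal markers 15 were listed, and they summed to 57.2 to 59.7 CPM in untreated Huh-7 and to 2.7 CPM in untreated HepG2, where ALPI was high. ANPEP alone gave 46.9 CPM of the sum in Huh-7, where VIL1, CDX1, LCT, GUCY2C and TFF3 were at 0 untreated. Others were detected in untreated Huh-7: HNF4G averaged 4.38, MUC2 3.15, SLC15A1 2.12 and CDH17 1.07 CPM. Of 5 tested, 1 fell in Huh-7 at 12 h, 1 rose and 1 fell at 24 h, and in HepG2 1 rose and 1 fell at 12 h and none was called at 24 h. ANPEP, a brush border peptidase, fell in Huh-7 from 46.9 to 13.1 CPM at 24 h (log2 -1.84, adjusted p = 6.5e-20, edgeR). HNF4G in Huh-7 was at 1.17 CPM at 12 h and 9.16 at 24 h (1.06 above untreated, adjusted p = 2.2e-06, edgeR). Germ cell tumour markers, of interest because such tumours make ALPP and ALPG, gave 1 rise in Huh-7 at each time, 1 rise and 1 fall in HepG2 at 12 h, and 2 rises and 1 fall at 24 h, of 6 tested. PRDM1 rose in Huh-7 from 18.4 to 48.6 CPM at 24 h (1.40, adjusted p = 8.24e-17, edgeR) and fell in HepG2 from 43.1 to 18.8 CPM (-1.19). At 12 h it was above untreated in both lines, at 124.8 CPM in Huh-7 and 73.5 in HepG2. POU5F1 rose in HepG2 from 16.7 to 40.7 CPM at 24 h (1.28), and in Huh-7 it averaged 14.4 CPM untreated and 24.4 at 24 h. NANOG averaged 6.25 to 9.61 CPM over the 6 groups, and SOX2 and SOX17 at most 0.06 CPM in any group. Of 8 hepatocyte markers tested, 2 rose and 2 fell in Huh-7 at 12 h, 1 and 2 at 24 h, and 1 rose and 1 fell in HepG2 at each time; HNF4A fell in Huh-7 from 30.8 to 0.60 CPM at 12 h (-5.64, adjusted p = 9.83e-23). Of 3 CEACAM genes tested, 1 rose in Huh-7 at 12 h, 1 rose and 1 fell at 24 h, and none was called in HepG2 at either time.

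The genes with the most similar pattern over the 16 libraries were ranked by Pearson's r of log2(CPM + 0.5), over tested genes that averaged 10 CPM or more. For ALPP these were DUSP16 (r = 0.998), MAPRE2 (0.995) and SVEP1 (0.995), and for ALPI MYH10 (0.996), BOK (0.995) and MELTF (0.995), itself a GPI-anchored protein gene. For CGA they were GSTM1 (0.994), CPA3 (0.993) and MUC13 (0.993), which averaged at most 1.64 CPM in any HepG2 group. CD46, a complement regulator, was first for both PSG4 (0.985) and PSG5 (0.984), and went in HepG2 from 347.7 to 1041 and 1748 CPM; DUSP3 (0.978) and TFRC (0.975) followed for PSG4, and PARD3B (0.978) and FOXF2 (0.977) for PSG5. PSG4 and PSG5 themselves had r = 0.98. The libraries share 2 lines and 3 times, so these values describe a common pattern of groups.

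The nearest listed genes on either side were read as well. DIS3L2, on one side of ALPP, stood at 31.4 CPM in untreated HepG2 and 12.2 at 24 h, and ECEL1, on the far side of ALPI, averaged under 1 CPM in every group. Next to CGA, SYNCRIP stood at 227.9 CPM in untreated Huh-7 and 119.9 in untreated HepG2, and ZNF292 rose with treatment in both lines (at 12 h log2 2.38 in Huh-7, adjusted p = 2.18e-23, and 3.63 in HepG2, adjusted p = 4.95e-19, edgeR). The neighbours of the PSG pair are PSG9 and PSG2, described above.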

How the data were processed

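Polyadenylated RNA captured with oligo-dT was sequenced on an Illumina HiSeq instrument, per the labels' protocols. The deposited tables give, per the file headers, an expected count, an FPKM value and a gene length; HISAT, Bowtie2 and RSEM are named with hg19 in the submitters' processing notes, with versions not given in the sources used here. Expected counts, as the authors made them, divide reads shared between genes among them, and the deposited FPKM divides by length and library total. The labels also speak of division by a sample median, which was tried as an alternative. Unlisted genes were entered as 0; 16665 of 16697 identifiers were named.

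Expected counts were rounded, filtered with filterByExpr (13633 genes left, 3064 removed), scaled by TMM and fitted with edgeR 4.0.16 (limma 3.58.1, R 4.3.3) with 1 coefficient for each of 6 groups over 16 libraries (10 residual degrees of freedom); p-values were adjusted by Benjamini-Hochberg over all genes tested. The lone untreated HepG2 library was assumed to vary like the other groups. The fit was checked on simulated counts. A difference was taken as a result where every group averaged over 3 counts and one at least 20. The SE of a log2 difference is its absolute value over the square root of the test's F. At few counts this SE can fall below the counting error. Intervals of count ratios are exact and cover counting error only. Replicate libraries correlated at 0.9944 or above and differed by more than sampling noise. The members and the 12 gene lists were chosen with earlier results of these data known. The named genes were the members, all listed genes of the 3 families, up to 4 called genes of each other list with the largest change and a mean of at least 5 CPM, the 3 genes most like each member, and neighbours; not all of these are printed. Alternatives were other scalings, DESeq2 1.42.0, no filter, limma on log2(FPKM + 1), a replicate block, a fit within each line, summing near-identical genes and leaving out each library. Sequences are from RefSeq; Biopython 1.88 aligned them, and neighbours were read by gene order only.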

Additional observations from a re-analysis of the deposited data

Results flagged for a closer look

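The change of ALPI differed between the lines: HepG2 minus Huh-7 was 1.78 on the log2 scale at 12 h and 1.35 at 24 h, with ALPI below the untreated level in all 6 treated libraries of each line. These values are a description, since ALPI was chosen on these data, and in Huh-7 they rest on 3.04 to 9.13 counts per treated library.

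Other genes named for both lines had changes that differed by the interaction term of edgeR's quasi-likelihood test. For JUN the difference of changes, HepG2 minus Huh-7, was -1.31 at 12 h (adjusted p = 3e-07) and -1.49 at 24 h (adjusted p = 2.55e-08). At 24 h it was -1.93 for NT5E (adjusted p = 1.67e-08), -1.78 for PHLDA2 (adjusted p = 5.63e-13) and -1.35 for PLAUR (adjusted p = 3.15e-13). PRDM1, which at 24 h rose in Huh-7 and fell in HepG2, differed by -2.60 (adjusted p = 1.1e-16); at 12 h it was above untreated in both lines, and the difference was -1.995 (adjusted p = 9.57e-15).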

How the results depend on the processing

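The 28 differences of the members were refitted under 24 alternatives, except that a fit within each line gives none of the 12 between lines. Scaling by the upper quartile, the plain library size or the library median moved the median change of all genes by -0.42 to 0.28. CGA in Huh-7 at 12 h, 0.16, became -0.11 (upper quartile), -0.26 (plain size) and -0.25 (limma on FPKM); ALPP in Huh-7 at 24 h, 0.34, became -0.01 with the plain size and with limma on FPKM; ALPP in Huh-7 at 12 h, 0.78, was 0.51, 0.36 and 1.07 with the upper quartile, plain size and library median, and in HepG2 it was 0.33, 0.11 and 0.79 at 12 h (0.51) and 0.18, 0.05 and 0.52 at 24 h (0.31). ALPI in HepG2 at 12 h, -0.97, was -1.15, -1.37 and -1.37 (upper quartile, plain size, limma), -1.01 with the replicate block and -0.68 with the library median. Summing ALPP, ALPG and ALPI, which by construction lets ALPP dominate, gave, in place of ALPI, 0.68 (12 h) and 0.23 (24 h) for Huh-7 and 0.19 and -0.04 for HepG2 (and -0.04 in place of ALPP at 24 h), and -0.49 and -0.27 for the differences of ALPI's changes. Those were -0.19 and -0.53 with limma on log2(FPKM + 1), where a pseudocount of 1 is large beside ALPI in Huh-7.

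Counts of called related genes went, with limma on FPKM, from 29 to 18 and 33 to 18 (higher, Huh-7 at 12 h, then 24 h), 25 to 9 and 28 to 18 (higher, HepG2), 9 to 5 and 12 to 4 (higher and lower, Huh-7, 24 against 12 h), 10 to 4 and 8 to 3 (the same, HepG2), and 36 to 20 (higher in HepG2 at 12 h). The plain size took 25 to 16 (higher, HepG2 at 12 h) and the library median 31 to 20 (lower, HepG2 at 24 h). ALPG at 12 h was 0.25 in Huh-7 and 0.28 in HepG2 with the library median, and -0.09 to 0.01 and -0.05 to 0.05 with a library left out. Of the other 87 differences of named genes, 31 values under alternatives lost a call. Same-numbered libraries correlated at -0.138 to 0.155, over 0.1 in 2 of 30 pairs, so the numbers pair nothing; the replicate block changed no other member's call. The lone untreated HepG2 library could not be left out.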
